A study of Mus musculus with 16 samples.

Results

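The VDAC, ANT and mitochondrial calcium channel genes are 7 genes whose products form or regulate the routes of metabolites, nucleotides and calcium across the mitochondrial membranes: Vdac1, Vdac2, Vdac3, Slc25a4, Slc25a5, Ppif and Mcu. They were chosen by name, and their chromatin was read from every ChIP peak that the deposited annotation assigns to one of these symbols. All 7 had a peak in at least 1 list, among 11472 genes with any peak. They held 45 of 56149 peaks, of which 43 were among 53959 peaks of acetylated histone H3 lysine 27 (H3K27Ac) and 2 among 2190 peaks of lamin A/C.

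VDAC channels are the main pores of the mitochondrial outer membrane, through which ATP, ADP, metabolites and calcium pass. The ADP/ATP carriers of the inner membrane (ANT) return ATP to the cytosol, the calcium uniporter lets calcium into the matrix, and cyclophilin D, the product of Ppif, promotes opening of the permeability transition pore. H3K27Ac marks active promoters and enhancers, and lamin A/C is a protein of the nuclear lamina. In heart muscle, which depends on mitochondrial ATP, these proteins link ATP made in mitochondria to contraction, and loss of desmin is known for its mitochondrial defects.

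The study asked how the absence of desmin, the muscle intermediate filament protein, changes active chromatin and lamina contacts in adult cardiomyocytes (ACM). ACM came from hearts of 3 month old mice by enzymatic perfusion with trypsin and collagenase. Of the 16 samples, 8 were input chromatin and 8 were precipitates, 1 for each antibody in each of 4 groups. The groups were Des+/+ basal, Des-/- basal, Des+/+ swim and Des-/- swim, where Des-/- mice lack both desmin alleles, swim mice had gone through the swimming exercise used as a mild stress, and basal mice had not. The methods describe chromatin from several mice for each genotype and condition, and the deposit holds 1 library per group. Differences between groups therefore have no replicate check and no p-value, and genotype or swimming cannot be told apart from differences between single libraries. Runs of 4 values below follow the order Des+/+ then Des-/- in the basal state, then Des+/+ and Des-/- after swimming. All intervals below are 95% intervals for counting error only.

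The value used is the deposited height of a peak, the number of overlapping reads at its highest point, beside the height of the input there. The H3K27Ac lists held 10407 to 16638 peaks of at least 15 reads. A gene without a peak in a list had less than this height, failed the authors' false discovery rate or had its peak assigned to another gene. Over genes, promoter height had medians of 28, 30, 23 and 27 reads. The median input under these promoter peaks was 6 reads in Des-/- swim and 3 reads in each other group, so the former list stood apart by its input. Of 8 cardiomyocyte marker genes, 8, 8, 8 and 6 had a promoter peak in the 4 groups, with summed heights of 250, 257, 222 and 130 reads. Endothelial markers were also acetylated, with 6, 6, 4 and 4 of 6 genes in the same order and sums of 161, 134, 85 and 95 reads, while fibroblast markers had 1, 2, 0 and 0 of 6 genes, with 16, 36, 0 and 0 reads, and none of the leukocyte or smooth muscle markers had a promoter peak. Mitochondrial channels are used by all of these cell types, and the part of the cell mixture in their heights was not tested. The Des promoter itself was acetylated at 30, 46, 24 and 37 reads in the same order. Acetylation at a start does not check a deletion.

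The sequences that these peaks sit beside are given first, because 33 of the 43 H3K27Ac peaks of the members (76.7%) lay within 3 kb of a start, as did 73.1% of all H3K27Ac peaks. RefSeq promoter windows matched 5 of the 7 members (all but Vdac2 and Vdac3). The 250 bases before the start are shown for these 5, from GRCm38.p6, the build of the deposited lists: Vdac1 at chr11:52360601-52360850 on the plus strand, Slc25a4 at chr8:46211063-46211312 on the minus strand, Slc25a5 at chrX:36795347-36795596 on the plus strand, Ppif at chr14:25693920-25694169 on the plus strand and Mcu at chr10:59616693-59616942 on the minus strand. The sixth sequence is the middle of the stretch that the 4 peaks share in the only distal member region found in all 4 H3K27Ac lists, chr10:59578324-59578623 on the minus strand in intron 1 of Mcu. Each is written 5′ to 3′ on the strand of its gene, and capitals mark matches on either strand to 1 of 9 short motifs.
Vdac1 promoter: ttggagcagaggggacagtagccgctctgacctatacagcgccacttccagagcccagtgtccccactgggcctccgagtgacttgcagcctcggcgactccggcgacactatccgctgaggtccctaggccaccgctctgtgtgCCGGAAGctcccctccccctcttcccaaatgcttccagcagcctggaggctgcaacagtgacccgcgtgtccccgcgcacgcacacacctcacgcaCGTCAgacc
Slc25a4 promoter: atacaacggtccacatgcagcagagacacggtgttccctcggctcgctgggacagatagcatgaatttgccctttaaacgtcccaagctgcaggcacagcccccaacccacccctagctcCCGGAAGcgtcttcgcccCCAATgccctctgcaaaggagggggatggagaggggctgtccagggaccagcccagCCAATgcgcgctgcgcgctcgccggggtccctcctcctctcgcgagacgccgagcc
Slc25a5 promoter: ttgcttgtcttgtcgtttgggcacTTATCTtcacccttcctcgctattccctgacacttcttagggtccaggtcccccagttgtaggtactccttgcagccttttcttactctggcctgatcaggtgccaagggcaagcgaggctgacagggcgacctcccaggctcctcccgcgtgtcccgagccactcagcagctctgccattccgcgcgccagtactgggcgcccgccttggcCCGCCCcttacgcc
Ppif promoter: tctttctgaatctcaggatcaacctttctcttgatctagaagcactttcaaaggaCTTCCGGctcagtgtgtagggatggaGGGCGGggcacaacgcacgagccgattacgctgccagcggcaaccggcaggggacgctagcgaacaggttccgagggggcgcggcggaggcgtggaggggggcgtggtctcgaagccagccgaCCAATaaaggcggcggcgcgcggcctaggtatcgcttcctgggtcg
Mcu promoter: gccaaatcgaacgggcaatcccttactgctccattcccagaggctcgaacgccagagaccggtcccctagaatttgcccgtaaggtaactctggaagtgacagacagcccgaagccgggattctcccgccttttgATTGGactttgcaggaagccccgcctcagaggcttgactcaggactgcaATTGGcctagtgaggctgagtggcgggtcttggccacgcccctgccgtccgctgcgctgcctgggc
Mcu intron 1: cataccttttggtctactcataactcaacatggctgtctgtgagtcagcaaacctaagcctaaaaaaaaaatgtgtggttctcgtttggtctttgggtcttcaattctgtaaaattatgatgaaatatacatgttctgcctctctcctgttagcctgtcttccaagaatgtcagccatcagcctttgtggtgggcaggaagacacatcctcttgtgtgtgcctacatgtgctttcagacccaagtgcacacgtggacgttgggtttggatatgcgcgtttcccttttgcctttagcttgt

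The motifs searched were the NRF1 motif GCGCATGC, the motif of GABPA and other ETS factors CCGGAAG, the element of the estrogen-related receptors AAGGTCA, the GC box motif GGGCGG, the binding motif of factor NF-Y, spelled CCAAT, the core promoter motif known as the TATA box, spelled TATAAA, the core of the cyclic AMP response element, spelled TGACG, the muscle factor MEF2 motif TAAAAATA and the heart factor motif AGATAA of the GATA family. No matches overlapped each other in these windows. CCGGAAG was found in the windows of Vdac1, Slc25a4 and Ppif, and in 6.91% of all 32851 promoter windows of the same length. CCAAT was found in Slc25a4 and Mcu with 2 matches each and in Ppif with 1, and in 33.8% of all windows. The GC box was found in Slc25a5 and Ppif (32.7% of all windows), the cyclic AMP core in Vdac1 (17.8%) and the GATA motif in Slc25a5 (9.99%). A second RefSeq start of Vdac1, inside the same peak, had 3 GC boxes and an estrogen-related receptor element (4.08% of all windows) in its window. The NRF1 motif (2.26%), the TATA box (12.4%) and the MEF2 motif (2.45%) were in none of the member windows. The intronic Mcu sequence held none of the 9 motifs. Ppif had the highest ratio of observed to expected CpG among these promoters, 1.04, above 95.9% of all windows, while its H3K27Ac peak was the lowest. Slc25a5 had the lowest CpG ratio of the promoter windows shown, above 67.2% of all windows. The motif shares over all windows were not matched for this ratio. The Vdac1 window lay wholly inside the H3K27Ac peak in all 4 lists, whereas 0 bases of the Slc25a5 and Ppif windows did, since those peaks began downstream of the window. The starts named with the peaks below are those of the deposited annotation. They differ from the RefSeq starts for Vdac1, Slc25a4 and Slc25a5. The Slc25a5 peaks covered the annotated start, and the Slc25a4 window lay mostly inside the annotated gene.

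Among the outer membrane channels, Vdac2, the VDAC isoform known to bind BAK in the outer membrane, had the highest promoter of the 7 genes in every list, with 107, 129, 92 and 75 reads over inputs of 4, 3, 5 and 6 reads. These heights lay above 98.8%, 99.5%, 99.5% and 97.5% of genes with a promoter peak in the respective list. The Vdac2 promoter was above the next member beyond counting error in all 4 lists. Its peak covered the main start at chr14:21831269 on the plus strand, running from position -937 to 952 bp around it in the basal Des+/+ library, with the summit 98 to 145 bp inside the gene in the 4 lists.

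Vdac1, the most studied isoform and a docking site of hexokinase, had 55, 56, 36 and 44 reads over inputs of 4, 4, 4 and 8. Both basal libraries were higher than both swim libraries. Its peak was broad, 1911 to 2611 bp, and the summit lay 392 to 439 bp after the start at chr11:52360860. Vdac3, the third isoform, had 42, 41, 28 and 30 reads in the same order, over inputs of 4, 2, 4 and 6, again with both swim libraries below both basal libraries. The median gene fell in the same way, as the ratios below show.

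The shape of the Vdac3 peak differed among the lists. The summit lay 302 bp upstream of the start at chr8:22593813 (minus strand) in Des-/- swim, and 174 to 212 bp inside the gene in the other lists. In Des+/+ swim alone the acetylated stretch was listed as a pair of peaks on either side of the start, with 28 reads inside the gene and 27 reads upstream, a difference of 1 read that is within counting error.

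Of the ADP/ATP carriers, Slc25a4 encodes ANT1, the main form of heart and skeletal muscle, and Slc25a5 encodes ANT2, a more widely used form. Slc25a4 had 39, 57, 36 and 32 reads over inputs of 5, 3, 4 and 10. Des-/- basal was the highest of the 4 and the other three lay close together. Slc25a5 had 39, 36, 24 and 22 reads in the same order over inputs of 2, 2, 4 and 4, with both swim libraries below both basal libraries. The 2 carriers had equal height in the basal Des+/+ library, and Slc25a4 lay above Slc25a5 in the other lists with overlapping Poisson intervals. Such overlap does not decide whether the 2 carriers differ beyond counting error, and no interval of their ratio was computed.

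The Slc25a4 peak reached far into the gene: it ran 2441 to 2746 bp beyond the start at chr8:46211030 (minus strand), past most of a gene that the annotation places at chr8:46206797-46211284. A second, lower promoter peak lay upstream in 3 lists, with 22 reads in Des-/- basal and 15 reads in each of the others, and none was listed in Des+/+ swim. Slc25a5 instead had a short peak of 753 to 804 bp at the start at chrX:36795651. Its summit lay 182 and 210 bp inside the gene in the basal libraries and 479 and 562 bp inside in the swim libraries.

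Ppif, encoding cyclophilin D, had the lowest acetylation of the set and was the only member whose promoter peak was missing from any list. It had 18 reads (10.7 to 28.4) over an input of 4 in Des+/+ basal and 16 reads (9.15 to 26.0) over an input of 4 in Des+/+ swim, and no peak in either Des-/- library. Both values were just above the minimum of 15 reads. The peaks began 11 and 23 bp after the start at chr14:25694170 and were 808 and 512 bp wide. In the Des-/- lists the nearest peaks lay 53.1 kb away in basal, assigned to Zmiz1, and 148 kb away in swim, assigned to Anxa11. Among 349 genes with the same Des+/+ basal height of 18 reads, 18.6% had no Des-/- basal promoter peak, and among 467 genes at 16 reads in Des+/+ swim 45.2% had none in Des-/- swim. A difference between genotypes at Ppif was thus not detectable at this depth.

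Mcu, the pore subunit of the uniporter, had promoter heights of 42, 44, 33 and 29 reads. The input there was higher after swimming, at 3, 3, 5 and 12 reads, and the 12 reads in Des-/- swim were above the input of 95.7% of genes in that list. The fold of height plus 1 over input plus 1 at Mcu was accordingly 10.8, 11.2, 5.67 and 2.31. The promoter peak covered the start at chr10:59616692 (minus strand) in 3 lists and began 2 bp inside the gene in Des-/- swim. The annotated gene Gm10322 overlaps the same peak, and the reads of the 2 genes cannot be told apart.

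**Figure D1:**
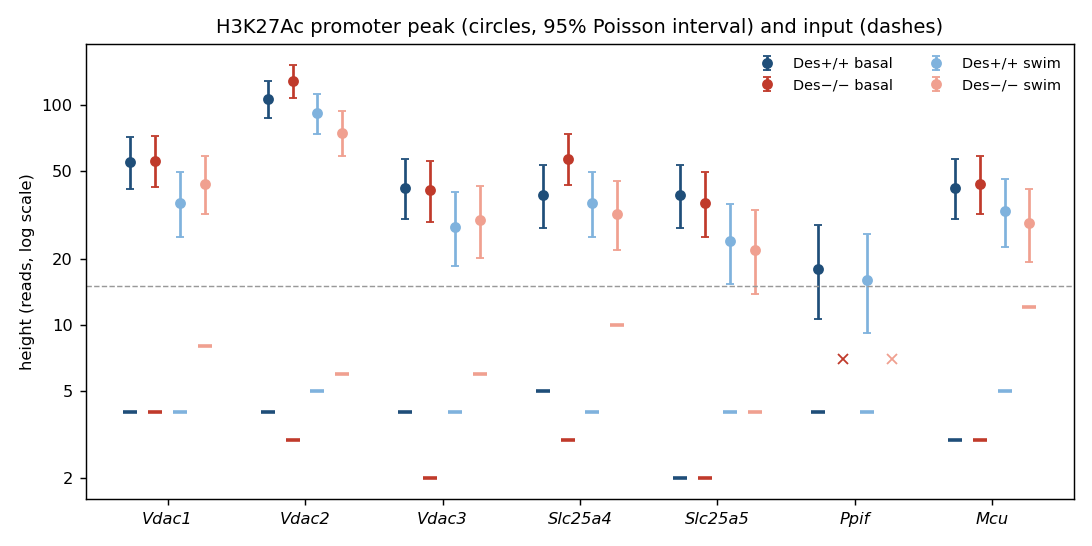
Height of the H3K27Ac promoter peak (circles, reads on a log axis) of each member in the 4 libraries, with 95% Poisson intervals, and the input height under the same peak (dashes). The dashed line is the minimum height of 15 reads, and crosses mark the 2 Des-/- lists without a Ppif peak. Vdac2 stands above the other members in every library at 75 to 129 reads, and Ppif stands lowest at 16 to 18 reads.

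The order of the members held in outline in all 4 lists, with Vdac2 first and Slc25a5 last of the 6 genes with a peak in every list, level with Slc25a4 in Des+/+ basal. Below Vdac2, neighbours in the order did not differ beyond counting error, except Slc25a5 above Ppif in Des+/+ basal. In Des+/+ basal all 7 members had a promoter peak, against 36% of 21924 protein-coding genes. In Des-/- basal 6 of 7 had one against 37.8%, in Des+/+ swim 7 of 7 against 27.1%, and in Des-/- swim 6 of 7 against 27%. The total of H3K27Ac peaks assigned to the members was 13, 11, 10 and 9, of which 9, 8, 8 and 8 were promoter peaks, that is within 3 kb of the assigned transcript start.

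**Figure D2:**
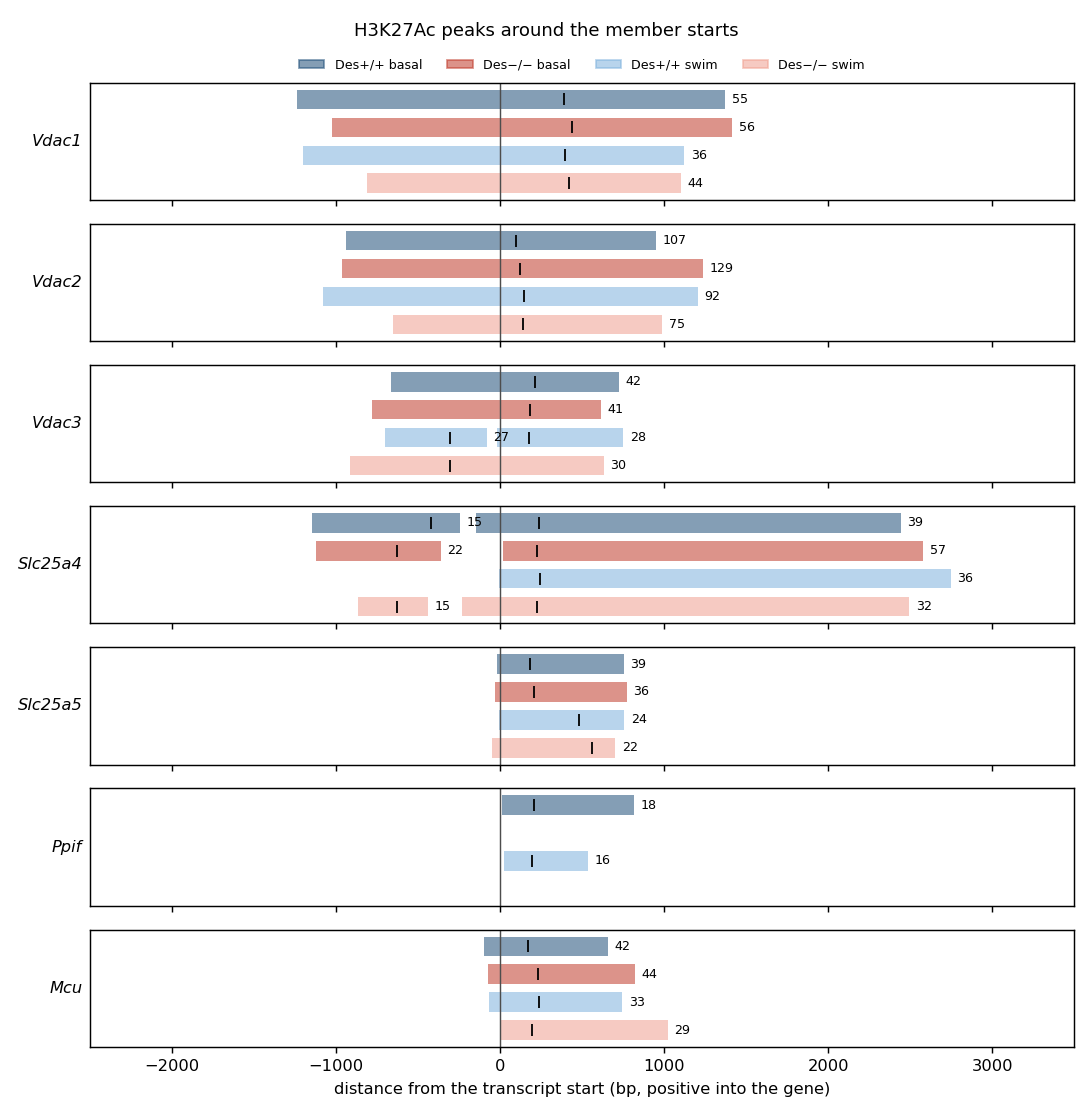
H3K27Ac peaks of each member around its transcript start, drawn to scale in bp with positive distances into the gene. Each bar is a peak in 1 library, coloured by group, black ticks are summits and numbers are heights in reads. Vdac1, Vdac2 and Vdac3 peaks lie on both sides of the start, whereas those of Slc25a4, Slc25a5, Ppif and Mcu lie mostly inside the gene.

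The first comparison asked what the absence of desmin changes in basal ACM, and at the channel promoters the heights of the genotypes were close. Each gene's log2 ratio of heights is given relative to the median gene, since library depth is not in the lists. Here the median gene was at 0.12 in Des-/- over Des+/+. Relative to it, Slc25a4 was at 0.43 (-0.18 to 1.06), the furthest of the members and above 92.4% of genes, from 57 reads in Des-/- and 39 in Des+/+. Vdac2 was at 0.15 (-0.23 to 0.54), Mcu at -0.05 (-0.69 to 0.60), Vdac1 at -0.09 (-0.65 to 0.47), Vdac3 at -0.15 (-0.81 to 0.51) and Slc25a5 at -0.23 (-0.93 to 0.46). None of the 6 genes passed 1.5-fold from the median gene, which 5.97% of 8061 genes did, and their median was -0.07. Ppif was the 1 member with a promoter peak only in Des+/+, a state shared by 6.05% of 9678 genes, and no member had one only in Des-/-, against 10.7%. By fold over input Vdac3 lay on the other side of the median gene, at 0.54, and Slc25a4 was past 1.5-fold at 0.96, but 30.8% of all genes are past it by that measure.

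After swimming, the same genotype comparison gave lower ratios for most members. Relative to a median gene at 0.18, Vdac2 was at -0.47 (-0.93 to -0.02), from 75 reads in Des-/- and 92 in Des+/+. It lay below all but 7.30% of 5410 genes, and its interval was the only member interval in the 4 comparisons that did not reach 0. The share of all genes with such an interval was not counted. The partner gene Hspa9, described below, was at -0.48 (-0.94 to -0.02) in the same comparison. Mcu was at -0.36 (-1.13 to 0.40), Slc25a4 at -0.35 (-1.08 to 0.38) and Slc25a5 at -0.30 (-1.21 to 0.59), and Vdac3 was at -0.08 and Vdac1 at 0.11. Thus 5 of 6 lay below the median gene, with a median of -0.32, and none was past 1.5-fold, as 7.32% of all genes were. Ppif again had a promoter peak only in Des+/+, as had 14.5% of 7549 genes, while 13.8% had one only in Des-/-. By fold over input, Vdac2 was at 0.09 and Mcu at -0.69, with the median of the 6 genes at 0.06, so the direction of the set depended on the measure. Mcu was past 1.5-fold by fold over input, as were 34.0% of all genes.

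In Des+/+ mice, swimming stress was set against the basal state, and the raw heights of all 7 members were lower after swimming, as was the median gene at -0.50. Relative to it, Slc25a4 was at 0.38 (-0.31 to 1.07), Ppif at 0.33 (-0.74 to 1.38), Vdac2 at 0.28 (-0.14 to 0.69) and Mcu at 0.15 (-0.56 to 0.84). Vdac3 was at -0.09, Vdac1 at -0.12 and Slc25a5 at -0.20. None was past 1.5-fold, against 6.91% of 6227 genes, and the median of the 7 was 0.15. This median includes Ppif, which had 18 reads in basal against a minimum of 15 reads in the swim list. Any listed swim peak would have put Ppif above the median gene, so its side of the median gene carries no information. All 7 kept a promoter peak after swimming, whereas 27.1% of 8926 genes had one only in basal and 3.13% only in swim. By fold over input, Slc25a5 was at -0.92 and Slc25a4 at 0.64, both past 1.5-fold, as were 33.4% of genes.

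In Des-/- mice, the members with a peak were again lower after swimming in raw height, relative to a median gene at -0.45. Slc25a4 went from 57 to 32 reads and was at -0.39 (-1.06 to 0.26) from the median gene, Vdac2 from 129 to 75 reads and at -0.33 (-0.77 to 0.09), and Slc25a5 from 36 to 22 reads and at -0.26 (-1.10 to 0.54). Mcu was at -0.15, Vdac3 at 0.00 and Vdac1 at 0.10, none of the 6 was past 1.5-fold, as 6.97% of 6183 genes were, and the median was -0.21. All 6 kept their promoter peak, whereas 31.1% of 9362 genes had one only in basal and 2.88% only in swim. By fold over input Mcu was at -1.01, lower than all but 4.66% of genes, beside its input of 12 reads. By that measure 37.2% of all genes were past 1.5-fold. The input of the members summed to 17 reads before and 46 reads after swimming over the same 6 genes, and its part in these ratios was not tested. The 4 comparisons share libraries in pairs and are not independent of each other.

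**Figure D3:**
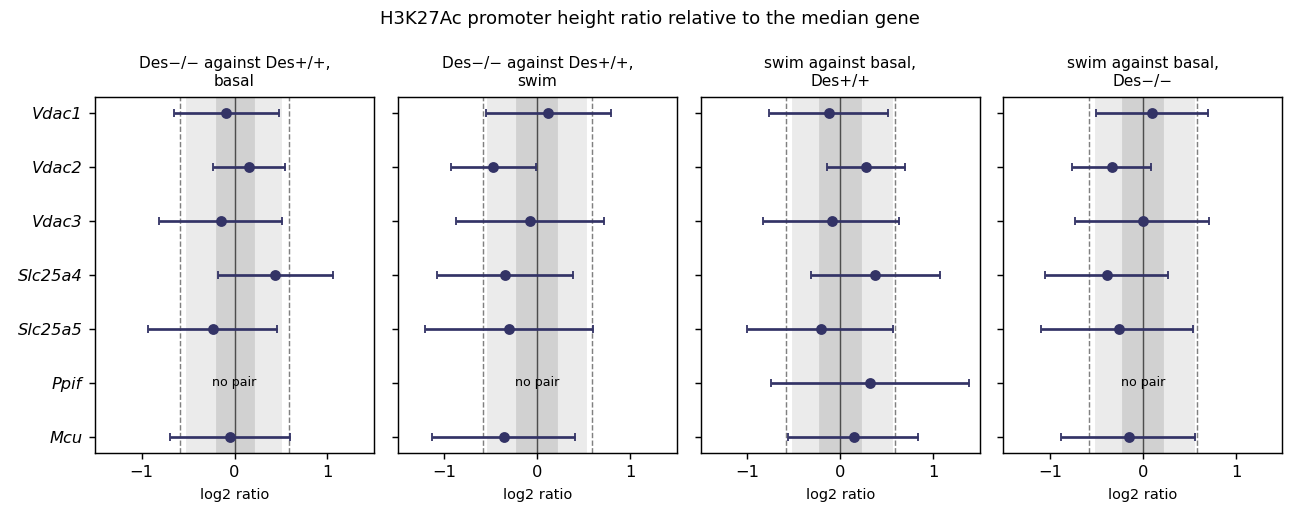
Log2 ratio of the H3K27Ac promoter height of each member, relative to the median gene, in the 4 comparisons, with 95% binomial intervals. Dark and light bands hold the middle 50% and 90% of all genes with a promoter peak in both lists, dashed lines mark 1.5-fold, and "no pair" marks Ppif where a Des-/- list has no peak. No member lies past 1.5-fold, and only the Vdac2 interval in swim, -0.93 to -0.02, does not reach 0. The share of all genes with such an interval was not counted.

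Away from promoters, 1 acetylated region of the members was found in every list. Merging overlapping peaks across lists gave 14 member regions, 9 at promoters and 5 distal (35.7%, against 33.8% of all 18277 regions). Of the 9 promoter regions 6 were in all 4 lists, against 47.8% of 12094 promoter regions in the series, and of the 5 distal regions 1 was, against 18.1% of 6183.

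That region lies in intron 1 of Mcu, 38.4 kb inside the gene at chr10:59577415-59579156. It had 20, 35, 24 and 21 reads over inputs of 2, 4, 2 and 2, and Des-/- basal was the highest. Its genotype ratio in basal was 1.75-fold, a log2 ratio of 0.81 (-0.03 to 1.68) above the median distal region and above 99.2% of 2798 shared distal regions, of which 6.04% were past 1.5-fold. The interval reached 0. By fold over input the genotypes were level there, at 7.0 in Des+/+ basal and 7.2 in Des-/- basal, with 8.33 and 7.33 after swimming. In swim the ratio was -0.19 (-1.11 to 0.71), where 7.48% of 1350 regions were past 1.5-fold. Swim against basal gave 0.51 (-0.40 to 1.45) in Des+/+ and -0.47 (-1.32 to 0.35) in Des-/-, within 1.5-fold in both, where 10.5% of 1934 and 8.55% of 1660 regions were past it. The Mcu promoter, at 42 and 44 reads in basal, had a genotype ratio of -0.05 (-0.69 to 0.60) from the median gene. This interval overlapped that of the intronic region, and a difference between the 2 places was not tested.

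The other distal regions were low, at 15 to 20 reads against a minimum of 15 reads. Of the 5 distal member regions 3 were in 1 list only, against 46.5% of all 6183 distal regions. A peak of 18 reads in intron 5 of Vdac1 (chr11:52377284-52377696) and one of 18 reads 11.9 kb beyond the Slc25a5 start (chrX:36807386-36807842, annotated as intergenic) were listed in Des+/+ basal only. A peak of 20 reads 9.49 kb upstream of Slc25a4 (chr8:46220365-46220777, intergenic) was listed in Des-/- basal only. A region assigned to Vdac3 28.0 kb past its start lies in exon 10 of the neighbouring gene Slc20a2 (chr8:22565566-22566087) and had no peak in Des-/- swim and 15 to 20 reads in the other lists. It was assigned to Vdac3 by the nearest transcript start. Vdac2 had an upstream region near the start of an alternative transcript, about 8 kb before its main start (chr14:21822543-21824497), with 32 and 23 reads in the basal Des+/+ and Des-/- libraries, 19 reads in Des-/- swim and no peak in Des+/+ swim. Between the basal genotypes it differed in the opposite direction to the main Vdac2 promoter, with overlapping Poisson intervals at both places.

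**Figure D4:**
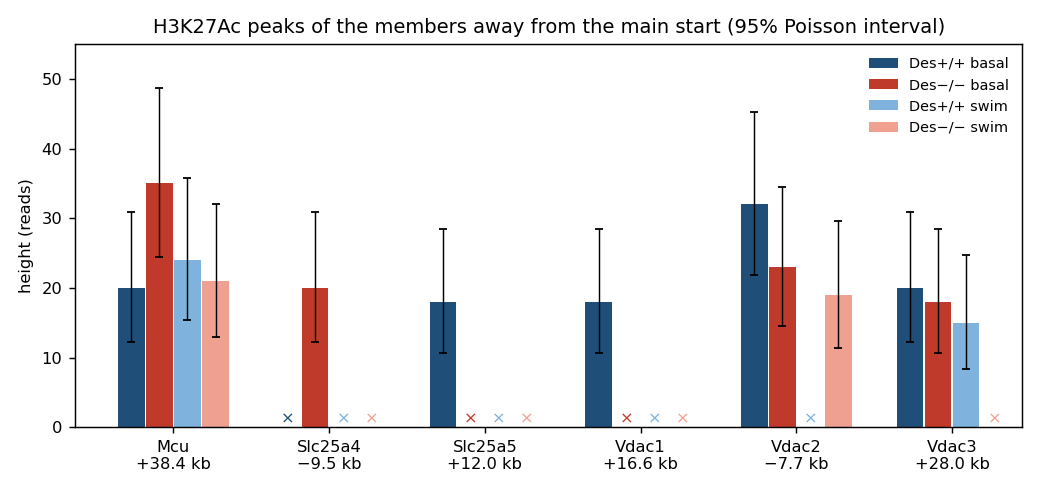
Height in reads of the H3K27Ac member regions away from the main start, in the 4 libraries, with 95% Poisson intervals, and the distance of the region's middle from the start under each name. Crosses mark lists without a peak. The Mcu intronic region is the only one in every list, at 20, 35, 24 and 21 reads.

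Lamin A/C was found at 2 members and in Des+/+ swim only. The Slc25a4 peak lay in the 3' UTR at chr8:46207421-46207642, with 10 reads over an input of 2, and the Vdac1 peak in the 3' UTR at chr11:52388769-52388968, with 9 reads over an input of 1. Both were 200 to 222 bp wide and near the minimum of 8 reads for that antibody, and 67.4% of the peaks in that list had 10 reads or less. The Vdac1 peak counts as a promoter peak by its annotation because the start of a short transcript lies 1572 bp away. In Des+/+ swim 2 of 7 members had a lamin A/C peak against 1.37% of protein-coding genes, and in the other lists 0 of 7 had one against 0.552% and 1.4% in the basal Des+/+ and Des-/- lists and 0.972% in Des-/- swim. Peaks in 3' UTRs made up 39 of 635 lamin A/C peaks in Des+/+ swim (6.14%), against 1.49% to 3.19% in the other lists. The heights of 9 and 10 reads have Poisson intervals of 4.12 to 17.1 and 4.80 to 18.4 reads, so their absence from another list was not detectable as a difference. No H3K27Ac peak lay at either place.

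A list of 36 genes that work with the channels was read in the same way, chosen for function. These were the regulators of the uniporter, other calcium and proton exchangers, further carriers, kinases bound to VDAC, outer membrane proteins of cell death, proteins at contacts with the endoplasmic reticulum and the import machinery. A promoter peak was present in 30, 30, 23 and 25 of them, and in 21 of them in all 4 lists, beside 36%, 37.8%, 27.1% and 27% of all protein-coding genes, a share that was also lower in both swim lists. The genes without a promoter peak in any list were 6: Mcub, Micu3, Slc8b1, Slc25a31, Ckmt1 and Bid. Mcub encodes the inhibitory subunit paired with the Mcu pore and Slc25a31 a testis form of the ADP/ATP carrier, and neither had any H3K27Ac peak.

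Around the uniporter, Smdt1, which encodes the bridge subunit EMRE, had 50, 64, 28 and 46 reads in the same order, Mcur1 had 41, 63, 29 and 40, and the gatekeeper Micu2 had 34, 36, 18 and 25. Slc25a3, the mitochondrial phosphate carrier, had 75, 104, 62 and 73 reads, above both ADP/ATP carriers in every list. Hspa9, which encodes the chaperone that links VDAC to the inositol trisphosphate receptor, had 110, 123, 90 and 73 reads, so that Hspa9 and Vdac2 were at nearly the same height in each list.

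Of the 7 genes of the outer membrane group, 2 had a promoter peak in Des+/+ swim and 6 had one in each other list. Over all genes, 27.1% had a promoter peak in Des+/+ basal and not in Des+/+ swim, and 13.8% had one only in Des-/- swim. The group was not tested against these shares. In the whole partner list, 7 of 30 genes had a promoter peak in Des+/+ basal and not in Des+/+ swim. Between the swim lists, 4 of 27 had one only in Des-/- and 2 of 27 only in Des+/+, against 13.8% and 14.5% of all genes. Bax and Bak1, the pore-forming effectors of apoptosis, had no peak in Des+/+ swim. In the other lists Bax had 29, 29 and 23 reads and Bak1 had 28, 23 and 24 reads. Tspo and Cisd1, an outer membrane iron-sulfur protein, were missing from the same list, and had 17, 18 and 18 reads and 33, 31 and 23 reads in the others. In the other direction Slc25a42 (18 reads) and Ckmt2 (21 reads), the mitochondrial creatine kinase of heart muscle, had a peak in Des+/+ swim and none in Des-/- swim. Letm1, Rmdn3 and Tomm22 had a peak in both basal lists only. All these heights were within 18 reads of the minimum.

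In height, 1 of 30 genes of this list was past 1.5-fold between genotypes in basal, Rmdn3, higher at 0.69 (-0.24 to 1.68). In swim 2 of 21 were past it, Pdzd8 higher at 0.61 (-0.28 to 1.53) and Samm50, of the outer membrane sorting machinery, lower at -0.74 (-1.54 to 0.03). Swim against basal in Des+/+ had 1 of 23, Samm50 at 0.90 (0.15 to 1.66), from 28 to 37 reads, and in Des-/- 2 of 25, Bcl2l1 at 0.61 (0.14 to 1.08) and Itpr2 at 0.71 (-0.10 to 1.54). The medians of the list were -0.02, 0.07, 0.17 and 0.02 in the same order of comparisons, where the median over all genes is 0. Over all genes 5.97%, 7.32%, 6.91% and 6.97% were past 1.5-fold, so the counts of 1 or 2 genes are near the background.

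**Figure D5:**
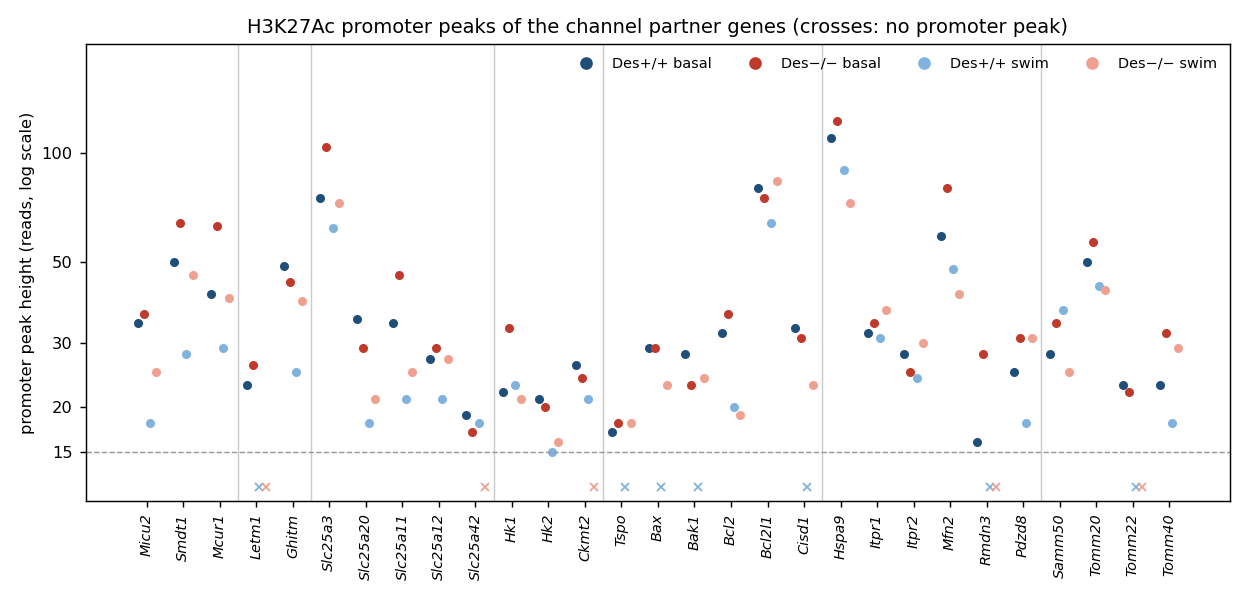
Height of the H3K27Ac promoter peak (reads, log axis) of the partner genes with a promoter peak in at least 1 list, 1 gene left out, in the 4 libraries, grouped by function between grey lines. Crosses below the dashed minimum of 15 reads mark lists without a promoter peak. Tspo, Bax, Bak1 and Cisd1 have no peak in Des+/+ swim and a peak of 18 to 24 reads in Des-/- swim. They are the 4 of 27 partner genes with a promoter peak only in Des-/- swim, against 13.8% of all genes.

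The genes most like each member were taken as those with the smallest distance in log2 promoter height over the 4 libraries, after each library's median was subtracted, among 5260 genes with a promoter peak in every list. For Vdac2 this was Hspa9 at a distance of 0.09, for Slc25a5 Dnm2 at 0.04 with 38, 36, 24 and 22 reads, and for Mcu Cox7c, a subunit of cytochrome c oxidase, at 0.08 with 44, 44, 32 and 29 reads. Prpf4b at 0.10 was nearest to Vdac1, Rnf11 at 0.08 to Vdac3 and Baz1b at 0.14 to Slc25a4. The second nearest genes were Agrp for Vdac1, Cdiptos for Vdac2, Tgfb3 for Vdac3, Rnf14 for Slc25a4, Mcrip2 for Slc25a5 and Tnfaip1 for Mcu. No member was among the nearest genes of another: 108 to 1125 other genes lay nearer than the nearest member. With 4 libraries such a likeness is a description of heights.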

How the data were processed

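H3K27Ac and lamin A/C ChIP-seq of ACM was deposited as 1 annotated peak list per precipitate, 8 lists in all. Per the labels and the methods, the authors aligned single-end reads to GRCm38 (mm10) with Bowtie2 2.4.4, sorted them with SAMtools 1.13, called peaks against input with their own R script and annotated them with ChIPseeker 1.36.0. The deposited peak height and input height are a coverage signal in reads, with no scaling for depth. The deposited fold is the ratio of height plus 1 to input plus 1. The deposited p-value and false discovery rate were the authors' filter and are not used as tests here. The deposited distance to the transcript start, in the data table a score, set which peaks were promoter peaks (within 3 kb). Total reads per library are not in the lists, and inputs enter only through their heights.

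Peaks were selected by gene symbol. The members, the partner list and the comparisons were chosen with earlier results of these data known. A gene's promoter height was its highest promoter peak. Ratios of heights were taken relative to the median gene with a promoter peak in both lists, with exact (Clopper-Pearson) binomial intervals, and single heights have exact Poisson intervals. Reads at 1 place are not independent molecules. With 1 library per group no test was possible, and 1.5-fold was used as a limit of size. All 7 members were named, and partner genes were named where they passed 1.5-fold or lacked a promoter peak in a list, with Smdt1, Mcur1, Micu2, Slc25a3 and Hspa9 added after their values were seen. The values of 1 partner gene are not reported here, though it is in the counts and medians of the list. Sequences came from the RefSeq promoter table and GRCm38.p6, and 200 of 200 windows checked were identical in both. The ratio step was tested on simulated data. Python 3.11.15 with pandas 2.3.3, numpy 2.4.6, scipy 1.17.1 and matplotlib 3.10.9 was used.

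Alternatives were heights as deposited, fold over input, height minus input, promoters within 1 kb, peaks of at least 30 reads (16 for lamin A/C), the highest peak of any kind, width times height, peaks over the gene body and equal numbers of peaks.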

Additional observations from a re-analysis of the deposited data

Results flagged for a closer look

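Of the 6 members with genotype ratios of promoter height, 3 lay on opposite sides of the median gene before and after swimming. They were picked by this change of side alone, and the share of all genes that change side was not counted. For Slc25a4 the ratio of Des-/- to Des+/+ was 0.43 in basal and -0.35 in swim (log2), a difference of 0.7788. For Vdac2 it was 0.15 and -0.47, a difference of 0.6259. For Vdac1 it was -0.09 and 0.11, a difference of -0.2021. Each group had 1 library, so these differences were not tested. The counting intervals of the basal and the swim ratio overlapped in all 3 genes. Such overlap does not decide whether a difference is within counting error, and no interval of the differences was computed. By fold over input, Vdac2 was at 0.43 in basal and 0.09 in swim, on the same side, and Slc25a4 was at 0.96 and -0.28.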

How the results depend on the processing

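No paired analysis was possible because each group had 1 library. Of 104 alternative values, 71 stayed and 33 moved. A count stayed if it was within 1.5 times the reported count. A median ratio stayed if its change was smaller than the distance from the middle to an end of a counting interval. That interval was for the ratio of heights summed over the genes. Of 167 alternative values of single member ratios, 5 left the counting interval of the ratio, and 0 of the ratios as reported were past 1.5-fold.

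With peaks of at least 30 reads, 7, 7, 4 and 4 H3K27Ac peaks remained at the members in Des+/+ basal, Des-/- basal, Des+/+ swim and Des-/- swim. With lamin A/C peaks of at least 16 reads 0 of 2 remained, and 1 counted as a promoter peak. With equal numbers of peaks, 1 member (Ppif) instead of 0 had a promoter peak in only 1 of the Des+/+ lists.

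Heights as deposited leave in the shift of the median gene. For swim against basal this shift was -0.50 in Des+/+ and -0.45 in Des-/-, and between genotypes 0.12 in basal and 0.18 in swim. With these heights the members' median log2 ratio of swim against basal was -0.35 in Des+/+ and -0.66 in Des-/-, turning the direction in Des+/+. Of the members 3 and 4 genes were then past 1.5-fold. For the partner list the median was -0.32 and -0.43, with 6 and 6 genes past 1.5-fold. Between genotypes it was 0.25 with 4 genes in swim, and 2 genes were past it in basal. The share of all genes past 1.5-fold with heights as deposited was not counted. With fold over input, the members' median between genotypes was 0.17 in basal and 0.063 in swim, with 1 gene past 1.5-fold in each and Vdac3 in basal at 0.54 in place of -0.15, and 2 genes in each swim against basal comparison. For the partner list 10 of 30, 9 of 21, 7 of 23 and 6 of 25 genes were past it by this measure. Over all genes 30.8%, 34.0%, 33.4% and 37.2% were past it, in the same order of comparisons. Height minus input put 1 member past 1.5-fold between genotypes in swim and 1 for swim against basal in Des-/-. Width times height put 1 between genotypes in swim and 3 for swim against basal in Des+/+, and the median for swim against basal in Des-/- was 0.065. Apart from the shift of the median gene that heights as deposited leave in, the causes of these moves were not tested. At heights of 15 to 57 reads, which include all members but Vdac2, counting error alone spans more than 1.5-fold. The same held for Vdac2 after swimming, with intervals of 74.2 to 113 reads in Des+/+ and 59.0 to 94.0 reads in Des-/-.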
